A study of Mus musculus with 12 samples.

Results

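Glutathione transferases were examined in the medial prefrontal cortex (mPFC) of mice after chronic social defeat (CSD) and of homecage (HC) mice. The 9 genes were Gstp1, Gstm1, Gstm5, Gstm7, Gsta4, Gsto1, Gstk1, Mgst1 and Mgst3, of 17656 genes measured. A gene was taken as measured where a probe set, the group of short probes whose signals are summarized to 1 value, was annotated to that gene alone. Each of the 9 genes had 1 such probe set, and all 9 passed the filter on low values.

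The arrays came from 6 CSD mice and 6 HC mice, with 1 Affymetrix Mouse Gene ST array for each mouse and 200 ng of total RNA for labeling. All 12 were adult wild-type males of the C57BL/6 strain, and their age in weeks is not given in the sources used here. Each CSD mouse shared a cage, across a perforated divider, with a dominant CD-1 male and met it in short daily bouts, and stressed mice entered the study by their behavior in tests of sociability and anxiety. HC mice were housed in groups, were not defeated, and were perfused and dissected in the same way the day after the last bout. The forceps minor, a white matter tract, marked the edge of the dissected cortex.

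Glutathione is the most abundant small thiol of cells, and glutathione transferases join it to reactive molecules such as the aldehydes left by oxidized lipids. The cytosolic enzymes fall into classes named by Greek letters (alpha, mu, pi, omega), the kappa enzyme sits in mitochondria and peroxisomes, and the microsomal ones (Mgst) are membrane proteins of a separate family. In the brain the pi enzyme, encoded by Gstp1, is widely used as a marker protein of mature oligodendrocytes, the cells that form myelin, and the study stained for it. Many genes of the family respond to the transcription factor Nrf2, which binds antioxidant response elements in DNA.

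Promoter sequence in a RefSeq table (mouse build GRCm38.p6, from 250 bases before to 50 after each listed start) was found for 8 of the 9 genes, and for Gsta4 it was not. The core of the antioxidant response element, TGACNNNGC, was searched on both strands. A match was present in 3 of their 11 windows, 1 each of Gstm5, Gstm7 and Mgst1, while 12.4% of all 32851 windows in the table hold at least 1. A match is a string of letters and not a tested site. The matches of Gstm5 and Mgst1 are shown because these 2 genes lie at opposite ends of the 9. The level of Gstm5 was nearly equal between the groups, and the mean of Mgst1 differed most. Capitals mark the 9 bases of the match, which lies 42 bases before the start in Gstm5 and, as the reverse complement, 56 bases before it in Mgst1.
Gstm5, chr3:107895766-107895853, plus strand: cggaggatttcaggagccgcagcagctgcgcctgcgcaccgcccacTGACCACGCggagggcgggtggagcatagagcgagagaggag
Mgst1, chr6:138140425-138140524, plus strand: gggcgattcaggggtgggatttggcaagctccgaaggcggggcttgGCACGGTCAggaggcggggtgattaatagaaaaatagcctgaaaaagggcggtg

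Across the 9 genes the differences between CSD and HC mice were small and mostly toward lower values in CSD. The mean was lower in CSD for 8 of 9 genes, where 57.1% of all measured genes had a lower mean, and the median log2 difference (CSD minus HC) was −0.14, against −0.01 over all measured genes. In limma, which fits 1 linear model per probe set and moderates each variance by all the others, 5 genes (Gstp1, Gstm1, Gsto1, Gstk1 and Mgst1) were lower at an unadjusted p under 0.05, or 5 of 9, while 6.52% of all measured genes (1151) were. In the other direction 0 of 9 were called, with 1.89% of all measured genes (334). The 9 genes were chosen with earlier results of these data known, so these shares are a description and not a test. With p-values adjusted by Benjamini-Hochberg over the 29838 probe sets that were kept, limma called 0 of 9, and 0 of all probe sets (0.0%) past the adjusted p and the fold limit. The test that the methods name also called 0. The smallest adjusted p in limma among the 9 was 0.453. None of the 9 reached the fold limit of 1.2 set in the methods, and the largest difference, that of Mgst1, was 13.1%.

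The arrays of HC replicates 2 and 6 correlated least with the rest of their group (median r of 0.992 and 0.991, against 0.994 to 0.996 for the other 10 arrays). For 8 of the 9 genes the highest HC value belonged to 1 of these 2 arrays, in 5 genes to replicate 2 and in 3 to replicate 6. How often this was so over all measured genes was not counted, so it cannot be read as particular to the 9. HC replicate 2 also had the highest median over all probe sets, 7.69, against at most 7.63 on the other 11 arrays. Without HC replicates 2 and 6, 0 of 9 genes were lower at an unadjusted p under 0.05, while 3.40% of all measured genes were. The median difference was then −0.10. None of the 9 was higher, while 5.11% of all measured genes were. This fit also had fewer HC arrays, and leaving out other pairs of arrays was not tested. In that setting, chosen after the data were seen, 7 of 9 genes kept a lower mean in CSD, where 41.5% of all measured genes had one.

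**Figure D1:**
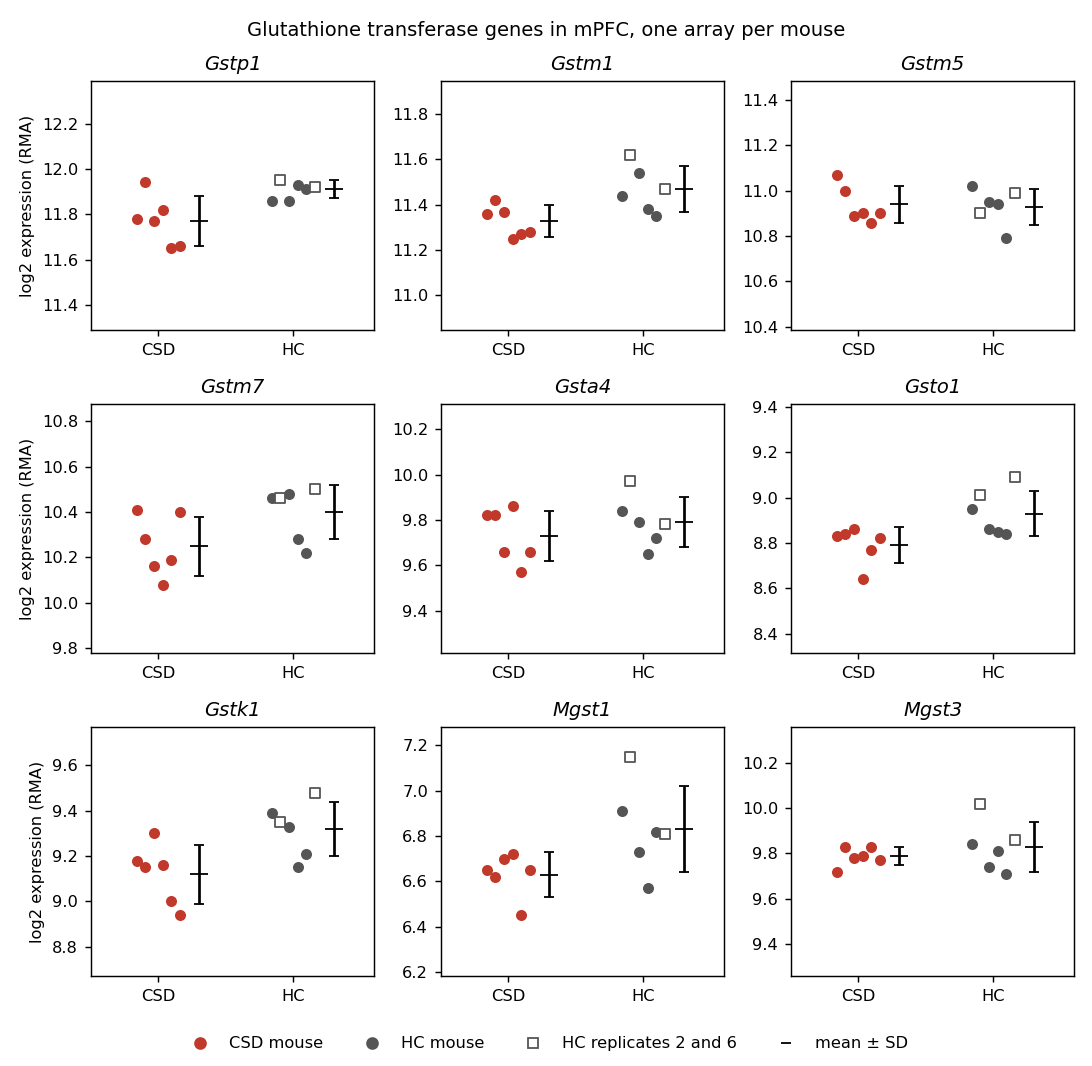
Log2 expression (vertical axis, a span of the same length in each panel) of the 9 glutathione transferase genes on each array, with CSD mice in red on the left and HC mice in grey on the right, HC replicates 2 and 6 as open squares, and bars for mean ± SD (n = 6 per group). The groups overlap in all 9 panels, and for Gstp1 a single CSD mouse, at 11.94, lies inside the HC range.

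Gstp1 encodes the pi-class enzyme. Its log2 value had a low of 11.65, a median of 11.77 and a high of 11.94 in CSD mice, against a low of 11.86, a median of 11.92 and a high of 11.95 in HC mice. The HC mice lay close together and 5 of the 6 CSD mice lay below all of them, CSD replicate 6 being the exception. The means were 11.77 ± 0.11 in CSD and 11.91 ± 0.04 in HC (SD, n = 6 each), a log2 difference of −0.14 (standard error 0.05, 95% interval −0.24 to −0.03), or 9.04% lower in CSD. The exact permutation test over arrays, two-sided, gave p = 0.0152, and limma an adjusted p of 0.455. Without HC replicates 2 and 6 the difference was −0.12, with an unadjusted p of 0.0547 in limma.

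Mouse cells carry a near-identical neighbor of this gene, Gstp2, and both genes' transcripts can hybridize to shared probes. A pair of probe sets annotated to Gstp1 together with Gstp2, which are assigned to neither gene here, differed by −0.14 (standard error 0.05, exact permutation p = 0.0173) and by −0.15 (standard error 0.05, exact permutation p = 0.0108). Both lay in the direction of the probe set of Gstp1 alone, at an adjusted p of 0.394 and 0.406 in limma.

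Genes of mature oligodendrocytes had lower values in CSD as well, by a larger amount. All 9 measured markers of a list of 10 (Mog, Mag, Mobp, Cnp and others) were lower at an unadjusted p in limma, beside 6.52% of all measured genes. Their median log2 difference was −0.58. Their mean log2 level ranged over the arrays from 9.35 to 9.93 in CSD and from 9.93 to 10.54 in HC, with all 6 CSD arrays below the lowest HC array. By the filter every measured gene had a value above system noise, the level taken as background, on at least 1 array. This held for these 9 markers by definition. The same 9 stayed lower at an unadjusted p without HC replicates 2 and 6, at a median of −0.62. Astrocyte markers were nearly level, with 8 of 10 lower by mean, beside 57.1% of all measured genes. At an unadjusted p 1 of them was lower (Aqp4, named after its value was seen), beside 6.52% of all measured genes. Their mean log2 level was 10.72 to 10.81 in CSD and 10.69 to 10.91 in HC. The part of either cell type in the differences of the transferases was not tested, and in a piece of tissue fewer cells of a type and less RNA per cell cannot be told apart.

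The mu class gave a mixed picture. Gstm1 had a log2 value between 11.25 and 11.42 in CSD mice (median 11.32) and between 11.35 and 11.62 in HC mice (median 11.46). The groups overlapped, with 3 CSD mice below the lowest HC mouse and HC replicate 2 highest of all. Its difference was −0.14 (standard error 0.05, 95% interval −0.25 to −0.03, exact permutation p = 0.0195, adjusted p = 0.457 in limma), and it was −0.10 without HC replicates 2 and 6, with an unadjusted p of 0.0666.

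Gstm7 ranged from 10.08 to 10.41 in CSD mice (median 10.23) and from 10.22 to 10.50 in HC mice (median 10.46). In HC, 4 mice lay together between 10.46 and 10.50, and the other two lay within the CSD range. The difference of −0.15 (standard error 0.07, 95% interval −0.30 to 0.00) did not pass at an unadjusted p (0.0536 in limma, exact permutation p = 0.0736).

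Gstm5 stood at the other end of the 9 genes. Its log2 value lay between 10.86 and 11.07 in CSD mice (median 10.90) and between 10.79 and 11.02 in HC mice (median 10.95), and the ranges overlapped broadly. The difference of 0.003 (standard error 0.05) changed sign with the scaling, to −0.011 with arrays centred on their medians. Its 95% interval was −0.10 to 0.11 (exact permutation p = 0.942), and whether Gstm5 differed from the other mu genes in this comparison was not tested.

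The 7 mu genes of the mouse lie side by side on chromosome 3, in the order Gstm5, Gstm7, Gstm6, Gstm3, Gstm2, Gstm1 and Gstm4. Gstm4 and Gstm3, which are not among the 9, had the smallest p of the other transferases. Gstm4 averaged 9.44 ± 0.06 in CSD and 9.62 ± 0.07 in HC (SD, n = 6 each), a log2 difference of −0.19 (standard error 0.04, adjusted p = 0.188 in limma). Gstm3 averaged 8.44 ± 0.04 in CSD and 8.56 ± 0.04 in HC (SD, n = 6 each), a difference of −0.12 (standard error 0.03, adjusted p = 0.256 in limma). In both genes all 6 CSD mice lay below all HC mice, which was so for 0.935% of all measured genes (exact permutation p = 0.00216, the smallest that 6 against 6 allow), while the groups overlapped in all 9. Complete separation the other way, with every CSD mouse above every HC mouse, was seen in 0 of the 9 and in 0.0793% of all measured genes. Both differences held without HC replicates 2 and 6, at −0.14 and −0.11 and an unadjusted p of 0.00315 and 0.00765 in limma. Gstm2 and Gstm6, named after their values were seen, differed by 0.06 (standard error 0.06) and −0.07 (standard error 0.12). The mu genes are close in sequence, and how far their probes cross-hybridize was not examined.

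**Figure D2:**
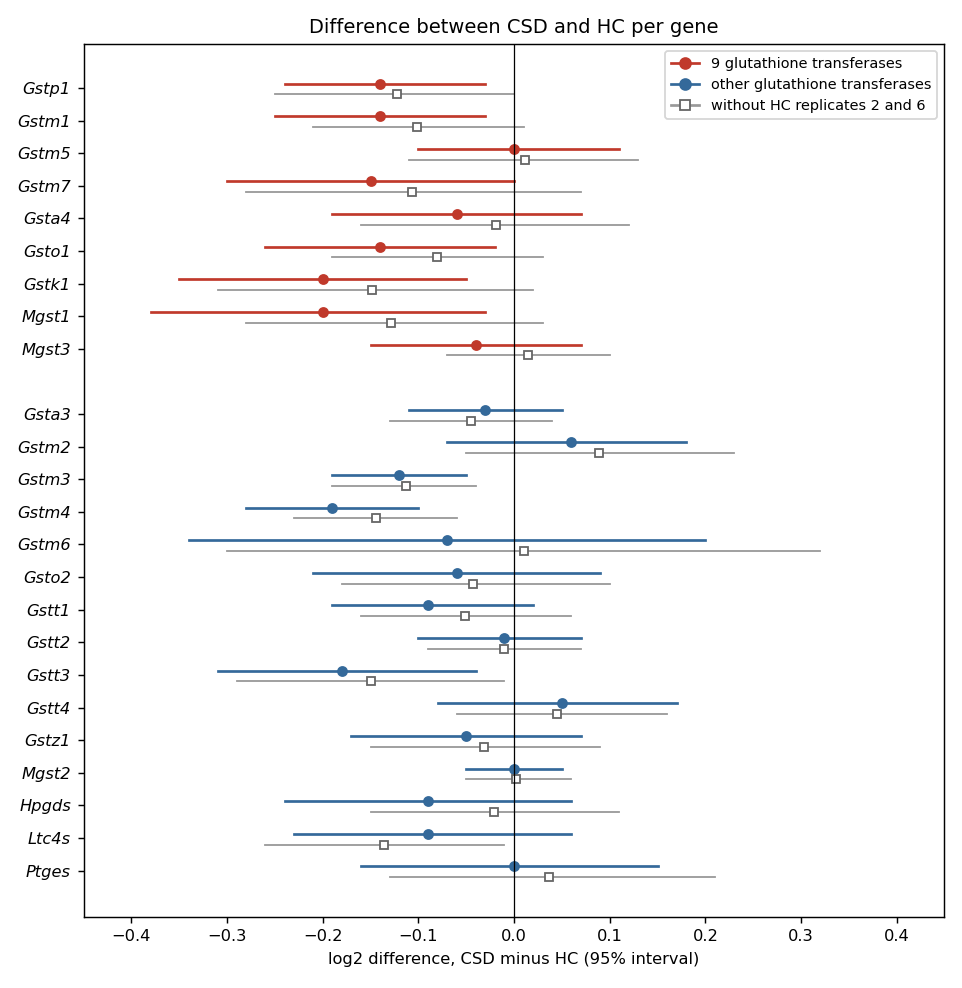
Log2 difference between CSD and HC (horizontal axis) with its 95% interval for the 9 glutathione transferases (red) and 15 other measured transferases (blue), and the same without HC replicates 2 and 6 (open squares). The red points run from −0.20 for Mgst1 and Gstk1 to 0.00 for Gstm5, and without the 2 HC arrays no red interval lies wholly below 0.

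Outside the mu and pi classes, 3 genes were lower at an unadjusted p. Gstk1, the kappa enzyme of mitochondria and peroxisomes, had log2 values from 8.94 to 9.30 in CSD mice (median 9.15) and from 9.15 to 9.48 in HC mice (median 9.34). CSD replicates 9 and 10 were below all HC mice and HC replicate 6 was highest. The difference was −0.20 (standard error 0.07, 95% interval −0.35 to −0.05), or 12.8% lower in CSD, with exact permutation p = 0.0216 and an adjusted p of 0.453 in limma. Without HC replicates 2 and 6 it was −0.15, with an unadjusted p of 0.0744.

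Mgst1 encodes a membrane enzyme of the endoplasmic reticulum and outer mitochondrial membrane that also reduces lipid peroxides. Its log2 value ranged from 6.45 to 6.72 in CSD mice (median 6.65) and from 6.57 to 7.15 in HC mice (median 6.82). System noise stood at 5.75, and HC replicate 2 lay well above all other mice. The difference was −0.20 (standard error 0.08, 95% interval −0.38 to −0.03, exact permutation p = 0.0325, adjusted p = 0.529 in limma). It no longer passed at an unadjusted p without HC replicate 1 (−0.19), without HC replicate 2 (−0.14), without CSD replicate 9 (−0.17) or without both HC replicates 2 and 6 (−0.13). With system noise set 1 log2 unit higher it was −0.12 (unadjusted p = 0.0682 in limma).

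Gsto1, the omega-class enzyme, which also reduces dehydroascorbate to vitamin C, had log2 values from 8.64 to 8.86 in CSD mice (median 8.83) and from 8.84 to 9.09 in HC mice (median 8.91). The groups met in the narrow span from 8.84 to 8.86, with CSD replicate 8 lowest and HC replicates 2 and 6 highest. The difference was −0.14 (standard error 0.05, 95% interval −0.26 to −0.02, exact permutation p = 0.0173, adjusted p = 0.483 in limma). The value was −0.08 without HC replicates 2 and 6, and without CSD replicate 8 it was −0.11 with an unadjusted p of 0.0515 in limma.

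The remaining genes did not pass at an unadjusted p. Gsta4, whose enzyme detoxifies the hydroxynonenal left by oxidized lipids, ranged from 9.57 to 9.86 in CSD and from 9.65 to 9.97 in HC, a difference of −0.06 (95% interval −0.19 to 0.07, exact permutation p = 0.381). Mgst3, a relative of Mgst1 with peroxidase activity, ranged from 9.72 to 9.83 in CSD and from 9.71 to 10.02 in HC, a difference of −0.04 (95% interval −0.15 to 0.07, exact permutation p = 0.472). The highest value of both came from HC replicate 2, and without HC replicates 2 and 6 the difference was −0.02 for Gsta4 and 0.015 for Mgst3. For Gsta4 it was −0.025 without HC replicate 2 and −0.028 without CSD replicate 9.

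**Figure D3:**
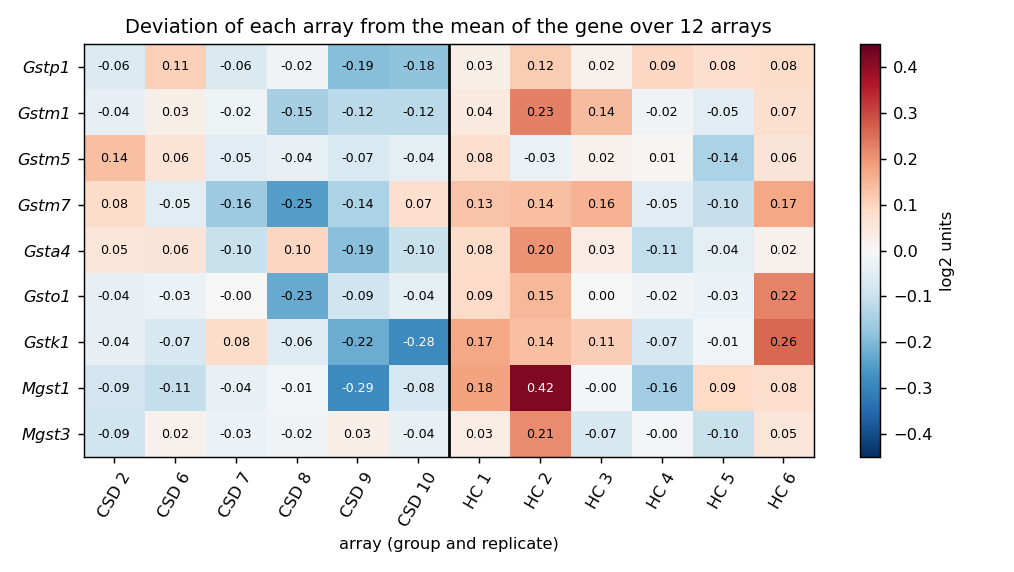
Deviation of each array (columns, CSD left of the line and HC right of it) from the mean of each gene over the 12 arrays (rows), in log2 units, with red above and blue below the mean. CSD replicate 9 is below the mean for all genes except Mgst3, and HC replicate 2 is above it for all except Gstm5.

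Correlations between the transferases over the 12 arrays were computed with the mean of each group subtracted. Pearson's r was positive for 35 of 36 pairs of genes, the exception being Gstp1 with Gstm7, with a median of 0.40. Over all pairs of measured genes 65.5% were positive, with a median of 0.17. None of the 36 passed after Benjamini-Hochberg adjustment (permutation of arrays within groups, two-sided), and 3 had an unadjusted p under 0.05. The closest pair was Gsta4 and Mgst1, at r = 0.77 (permutation p = 0.00319, adjusted 0.115) and Spearman's rho = 0.71 (permutation p = 0.0113, adjusted 0.335), and r was 0.48 without the 2 arrays farthest from the median of Gsta4. The median r was 0.26, with 28 of 36 pairs positive, when HC replicates 2 and 6 were left out, and over all pairs of measured genes it was then 0.06, with 55.4% positive.

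Set against the mean level of the marker lists in the same way, added after the data were seen, 0 of 18 relations passed the adjustment. Gstp1 had r = 0.50 with the mature oligodendrocyte markers (permutation p = 0.0838, adjusted 0.381) and rho = 0.36 (permutation p = 0.260, adjusted 0.584), with r = 0.35 without the 2 farthest arrays. Mgst1 lay on the other side, at r = −0.48 (permutation p = 0.150, adjusted 0.381) and rho = −0.59 (permutation p = 0.0584, adjusted 0.453) with the same markers, and at r = −0.03 without the 2 farthest arrays. Of the other 7 genes, 4 had a negative r with these markers and 3 a positive one. The highest were Gsto1 with the astrocyte markers, at r = 0.71 (permutation p = 0.0196, adjusted 0.176) and rho = 0.68 (permutation p = 0.0322, adjusted 0.453), and Gstk1 with the same list, at r = 0.67 (permutation p = 0.0136, adjusted 0.176) and rho = 0.54 (permutation p = 0.0755, adjusted 0.453). Without the 2 farthest arrays r was 0.81 for Gsto1 and 0.74 for Gstk1. As a description only, since they were picked as the highest of all measured genes, the genes most like Gstp1 over the 12 arrays, with group means subtracted, were Ramp3 (r = 0.95), Lsp1 (r = 0.93) and Neurod6 (r = 0.84). Those most like Gstk1 were Mpi (r = 0.93), Ist1 (r = 0.92) and Cfdp1 (r = 0.92). These share array and normalization with the genes they resemble.

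Of 15 other measured transferases (of 18 listed), 12 had a lower mean in CSD, beside 57.1% of all measured genes, with a median difference of −0.06. At an unadjusted p in limma 3 of them, Gstm4, Gstm3 and Gstt3, were lower and 0 higher. Of all measured genes 6.52% were lower and 1.89% higher. Gstt3, named after its value was seen, is a theta-class gene and differed by −0.18 (standard error 0.06, adjusted p = 0.455 in limma). Without HC replicates 2 and 6 the count of lower genes was 4 of 15, beside 3.40% of all measured genes. Gsta1, Gsta2 and Gstp2 are not reported here, since the annotation gives none of them a probe set of its own.

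In glutathione synthesis and supply, 11 of 14 measured genes had a lower mean, beside 57.1% of all measured genes, with a median difference of −0.04. At an unadjusted p 1 of 14 was lower and 1 higher, where 6.52% and 1.89% of all measured genes were. Slc3a2, the heavy chain shared by several amino acid exchangers, among them the cystine importer, was lower, at 12.34 ± 0.05 in CSD and 12.43 ± 0.04 in HC (SD, n = 6 each), a difference of −0.09 (standard error 0.03, adjusted p = 0.455 in limma). Cth, which makes cysteine from cystathionine, was higher, at 7.73 ± 0.07 in CSD and 7.61 ± 0.07 in HC (SD, n = 6 each), a difference of 0.13 (standard error 0.04, adjusted p = 0.416 in limma). When HC replicates 2 and 6 were left out, Slc3a2 no longer passed at an unadjusted p, and Cbs, which makes cystathionine and is named after its value was seen, passed at 0.21 (unadjusted p of 0.000183 and adjusted p of 0.206 in limma), against a difference of 0.12 with all arrays.

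Among peroxidases and enzymes of reduction, 9 of 13 measured genes had a lower mean (median −0.04), beside 57.1% of all measured genes. At an unadjusted p 4 were lower and 0 higher, beside 6.52% and 1.89% of all measured genes. Idh1, which supplies NADPH in the cytosol, averaged 10.18 ± 0.08 in CSD and 10.36 ± 0.09 in HC (SD, n = 6 each). Its difference was −0.19 (standard error 0.05, adjusted p = 0.288 in limma). All 6 CSD mice lay below all HC mice, which was so for 0.935% of all measured genes. Glrx, glutaredoxin, which uses glutathione to reduce disulfide bonds of proteins, differed by −0.17 (standard error 0.04). Gpx3, a secreted glutathione peroxidase named after its value was seen, differed by −0.33 (standard error 0.09). Both had an adjusted p of 0.288 in limma. Gsr, glutathione reductase, was the fourth, also named after its value was seen, at −0.11 (standard error 0.04). Without HC replicates 2 and 6 Gsr no longer passed (unadjusted p of 0.0752 in limma), and 3 of the 13 were lower and 0 higher. Of all measured genes 3.40% were lower and 5.11% higher in that setting.

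Of 6 other glutathione-dependent enzymes, 2 had a lower mean and 4 a higher one, where 57.1% of all measured genes had a lower one. At an unadjusted p 0 of the 6 passed. The smallest p belonged to Esd, S-formylglutathione hydrolase, with a difference of 0.10 (95% interval −0.01 to 0.21), and Adh5, which acts on the formaldehyde adduct of glutathione, with −0.10 (95% interval −0.22 to 0.01). Esd was 0.07 without HC replicate 5, and it passed at an unadjusted p in limma without HC replicates 2 and 6, at 0.15. Of 9 measured genes of conjugate export and breakdown, 5 had a lower mean. At an unadjusted p 1 was lower and 1 higher, beside 6.52% and 1.89% of all measured genes. Abcg2, an efflux pump of the blood-brain barrier, differed by −0.18 (standard error 0.06, adjusted p = 0.456 in limma), and Abcc5, a pump of the multidrug resistance protein family, by 0.12 (standard error 0.05, adjusted p = 0.583 in limma). Abcg2 no longer passed without HC replicates 2 and 6 (unadjusted p of 0.0704 in limma). In that setting 0 of these 9 export and breakdown genes were lower and 2 higher, beside 3.40% and 5.11% of all measured genes. Without HC replicates 2 and 6, genes with a lower mean numbered 6 of 14 in synthesis and supply and 6 of 13 among peroxidases and reduction. They numbered 2 of 6 among the other enzymes and 3 of 9 in export and breakdown, beside 41.5% of all measured genes. The direction of the median turned for 3 of these 4 lists. The median over all measured genes turned as well, from −0.01 to 0.013.

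Nfe2l2, the gene of Nrf2, had the smallest p of its list. It averaged 8.51 ± 0.10 in CSD and 8.79 ± 0.09 in HC (SD, n = 6 each), with 5 of 6 CSD mice below all HC mice. The difference was −0.28 (standard error 0.05, 95% interval −0.39 to −0.16, exact permutation p = 0.00433, adjusted p = 0.132 in limma), and it was −0.23 without HC replicates 2 and 6. Of the 12 genes of Nrf2, its partners and its other targets, 9 had a lower mean, beside 57.1% of all measured genes. Their median was −0.02, against −0.01 over all measured genes. At an unadjusted p 3 were lower and 0 higher, beside 6.52% and 1.89% of all measured genes. The next was Cat, catalase, at −0.19 (standard error 0.08, adjusted p = 0.570 in limma), and at −0.11 without CSD replicate 8. Without HC replicates 2 and 6, 1 of the 12 was lower and 2 were higher at an unadjusted p, where 3.40% and 5.11% of all measured genes were.

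**Figure D4:**
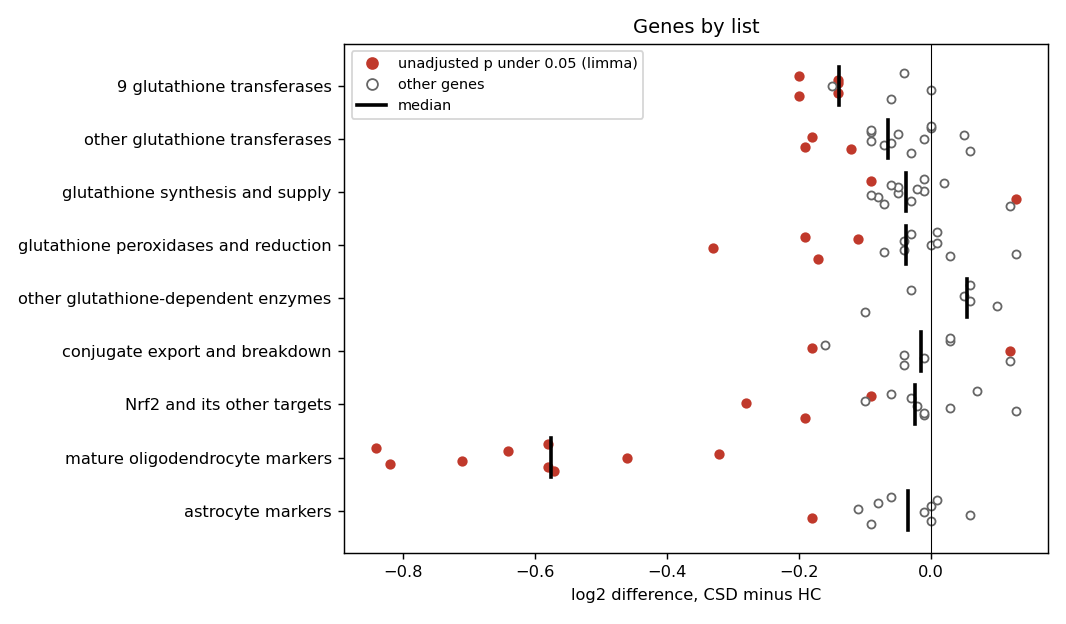
Log2 difference between CSD and HC (horizontal axis) of each measured gene, by list (rows), filled where the unadjusted p in limma was under 0.05, with the median of each list as a bar. The 9 glutathione transferases have a median of −0.14, and the median of the mature oligodendrocyte markers, −0.58, lies apart from those of all other lists shown. Single genes overlap, with Gpx3 of the peroxidases at −0.33 and the marker Mbp at −0.32.

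Markers of other cell types that the dissected piece could hold were counted in the same way. At an unadjusted p in limma, lower genes numbered 2 of 6 for oligodendrocyte precursors and 2 of 9 for microglia, beside 6.52% of all measured genes. These were Gpr17, Lhfpl3, P2ry12 and C1qc, named after their values were seen, with log2 differences from −0.14 to −0.13. They numbered 0 of 6 for endothelial cells, 0 of 6 for pericytes and smooth muscle, 0 of 6 for meningeal fibroblasts, 0 of 6 for choroid plexus and ependyma and 0 of 9 for neurons. For red blood cells 2 markers and for blood leukocytes 3 were measured, with 0 lower, and no marker of any of these lists was higher at an unadjusted p. Without HC replicates 2 and 6, 2 precursor markers and 1 microglia marker were higher at an unadjusted p, and 1 and 0 were lower, where 5.11% of all measured genes were higher and 3.40% lower. The mean log2 level of the neuron markers, 12.03 to 12.09 in CSD and 12.05 to 12.14 in HC.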

How the data were processed

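Total RNA of the mPFC of 6 CSD and 6 HC mice was hybridized, with a single array for each mouse. Per the labels and the methods, the deposited values are log2 expression that the authors obtained by RMA (background correction, quantile normalization and probe summary) with Expression Console, of a version not given here. They cover 35556 probe sets, and 0 further columns of samples were left aside. As arrays have no read depth, their number limits the precision.

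As in the methods, probe sets with no value above system noise were left out (5718, leaving 29838) and all smaller values were set to that level. A LOWESS fit (span 0.2) of variation against mean signal became linear only from 10.19 upward, above the middle of the probe sets (7.56). System noise was therefore taken as the 20th percentile over the whole table, 5.75. Differences (CSD minus HC) were fitted with limma 3.58.1 in R 4.3.3 (two-sided, Benjamini-Hochberg over the probe sets kept), in place of the Welch test of the methods. A call needed an adjusted p below 0.05 together with a fold of 1.2 or more. Single genes were also tested by exact permutation over the 924 assignments of 12 arrays, and correlations by 100000 permutations within groups.

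The platform annotation names a single gene for 21789 probe sets, more than 1 for 1621 and no gene for 12146. The brightest probe set stood for a gene, and Entrez identifiers of 21698 were found in the RefSeq gene table (GRCm38.p6). The transferases and all lists were chosen with earlier results of these data known. Named are the 9 genes, the 2 genes of each pathway list with the smallest p, and the 3 genes most correlated with Gstp1 and with Gstk1 (the gene of the 9 with the smallest p), and others are marked. The lists cover other glutathione transferases, glutathione synthesis and supply, peroxidases and reduction, other glutathione-dependent enzymes, conjugate export and breakdown, Nrf2 and its targets, and markers of the cell types given in the text. The arrays come from separate mice. The fit was tested on simulated data. Alternatives were the Welch test, no floor, no filter, a higher system noise, only probe sets with 1 gene, median centring, quantile normalization, a robust fit with a variance trend, weighted arrays, the replicate block, leaving out each array, and, added after seeing the data, leaving out HC replicates 2 and 6.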

Additional observations from a re-analysis of the deposited data

Results flagged for a closer look

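In CSD, the Mgst1 value of replicate 9, 6.45, lay apart below the other 5. The distance to its nearest neighbor took up 0.65 of the spread between the lowest and highest CSD mouse, which is past the critical value of Dixon's test (95%) for 6 values. Of 18 sets of 6 values (9 genes in each group) this was the only one past the critical value, and chance alone passes about 1 in 20.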

How the results depend on the processing

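The number of glutathione transferases lower at an unadjusted p in limma was 5, stayed between 4 and 6 when any single array was left out and under every other planned setting, and was 0 with HC arrays 2 and 6 both left out. The median difference, −0.14, ranged from −0.16 to −0.11 without single arrays. No transferase passed the adjustment in any of 23 alternatives, the smallest adjusted p being 0.261. Over all probe sets limma called 0, against 21 with only probe sets with 1 gene tested, 14 with a robust fit and a variance trend, 1 with quantile normalization, and 406 at an unadjusted p with the fold limit. Gstm5, at 0.003, had the opposite sign with arrays centred (−0.011), with array weights (−0.001) and with the replicate block (−0.002), and ran from −0.025 to 0.020 without single arrays. Mgst3 was 0.015 with HC arrays 2 and 6 both left out. The unadjusted call of Mgst1 was lost in 6 alternatives, those of Gstp1 and Gsto1 in 2 each and those of Gstm1 and Gstk1 in 1 each, and Gstm7 gained one in 6. Of the other named genes, Cat lost it in 11 and Abcc5 in 10 of 23, Abcg2 and Slc3a2 in 1 each, while Esd gained one in 6 and Adh5 in 1. The cause of these changes was not tested. The titles of the groups share only the numbers 2 and 6, whose arrays did not deviate together (r of −0.21 and −0.04), and with the replicate number as a random block the count of lower transferases was 5 again. Because each of the 9 genes has a single probe set, averaging probe sets changes nothing for them. All values of the 9 genes lay above system noise, and the number of arrays limits the precision.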
